A study of Bos taurus with 4 samples.

Results

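Splicing and RNA-binding protein genes are described here through the noncoding candidate transcripts that lie within their introns or opposite their exons. The members were chosen by name, as every transcript whose gene symbol starts with SRSF, HNRNP, RBM, RBFOX, MBNL, CELF, SF3, PRPF, LSM or CPSF. They number 389 of 63845 transcripts measured in bovine skeletal muscle, and belong to 54 genes. Of these, 367 are intronic transcripts of 48 genes. The other 22 are antisense transcripts of 16 genes, which overlap exons from the other strand. All 54 symbols were found as protein-coding genes in the RefSeq gene table. One of them, LSMEM1, a membrane protein gene, shares the letters of the prefix LSM and is not known as an RNA-binding protein, and it contributes 1 transcript.

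The samples were 4 skeletal muscles of Hereford females aged 18 months, fattened in 1 feedlot, with no treatment. Longissimus thoracis (along the back, labelled Longissimus thoraci), a muscle of the scapula, gluteus (of the rump) and an intercostal muscle (between the ribs) each had 1 library, made from a pool of total RNA of 3 animals. With 1 library per muscle there is no spread between animals, no difference was tested, and every comparison below is a rule of size. Values are the authors' FPKM, a read number divided by the transcript's length in kilobases and by the library total (fragments per kilobase, as a per-million rate). The exact 95% Poisson interval of a value stands in parentheses beside it. It comes from whole reads recovered out of the FPKM values and covers counting error only, since reads without molecular identifiers are not independent molecules. In pooled tissue, fewer cells of a type and less RNA per cell cannot be told apart. The strand setting of the counting was not given in the sources used here. Thus reads of an antisense transcript and of the gene's own messenger RNA cannot be told apart. The muscles are called longissimus, scapula, gluteus and intercostal below.

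The library totals were inferred from the FPKM values. They were 2132255 reads (longissimus), 1511933 (scapula), 1107493 (gluteus) and 1318644 (intercostal), and a single read over 300 nucleotides came to between 1.56 and 3.01 FPKM. The reads recovered for these candidates summed to 102% to 104% of those totals. A rate by library total is thus close to a share of the candidates' own reads, and sequencing depth is not known from the totals. Of 16 marker genes of muscle fibres, 6 had transcripts in these noncoding tables, 17 in all, and their summed level was lowest in longissimus, at 30387 RPM (reads-per-million of the library total), and highest in intercostal, at 58898 RPM. The other 10, ACTA1 and CKM among them, had none in these tables of noncoding candidates. Transcripts at 4 of 6 fibroblast markers summed to 1753 RPM in longissimus, 8516 in scapula, 1488 in gluteus and 3912 in intercostal, and COL1A2 and LUM had none. Transcripts at markers of satellite cells (1 of 4 genes, at most 4.63 RPM), adipocytes (1 of 6, at most 38.7 RPM), leukocytes (2 of 6, at most 45.6 RPM) and nerve (3 of 6, at most 31.9 RPM) had low sums. Of 5 erythroid markers none had a transcript. Endothelial markers (2 of 6) lay between 30.0 and 166 RPM, and smooth muscle and pericyte markers (4 of 6) between 543 and 826 RPM. These sums are of noncoding candidates at few marker genes, so they do not measure cell content. They add every transcript, also those of the same locus, unlike the sums per gene given below.

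Splicing removes introns from the messenger RNA precursor and joins its exons. The spliceosome does the cutting: SF3 proteins sit in the U2 particle that recognises the branch point, PRPF proteins help assemble and activate the complex, and many LSM proteins form rings on small nuclear RNAs and on messenger RNAs that are being decayed, though LSM14A, the RNA-binding LSM gene measured here, is a protein of processing bodies, where messenger RNA is stored. SRSF and HNRNP proteins bind many exons and introns and shift which exons are kept. MBNL, CELF and RBFOX proteins and RBM20 and RBM24 set the exon choices of striated muscle, among them exons of titin and of other sarcomere genes, and MBNL proteins are trapped by repeat RNA in myotonic dystrophy. CPSF proteins take part in the cutting of the precursor at its 3′ end before the poly(A) tail is added. Many genes of these proteins have long introns, and a transcript within an intron may be a separate noncoding RNA or a piece of the unspliced precursor, which these tables do not separate.

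The members were spread unevenly over the genes. RBFOX2 had 53 transcripts, RBMS3 47, MBNL2 30, RBFOX1 28, RBMS1 27 and MBNL1 18, so 6 genes held 203 transcripts or 52.2% of the members. The median gene had 3 transcripts, against 2 over the 6589 genes with a symbol or identifier, and 12 of 54 genes (22.2%) had 10 or more, against 10.1% of all genes. RBFOX2 ranked 30 and RBMS3 39 by transcript number among the 6589 genes. By prefix, RBM genes had 173 transcripts, RBFOX 81, MBNL 48, HNRNP and PRPF 18 each, SRSF 15, CPSF 14, CELF 12, LSM 7 and SF3 3. CELF was represented by CELF2 and SF3 by SF3B3. Some genes are neighbours in the RefSeq table, namely RBM5 with RBM6, and RBM4 with RBM14 and with RBM4B.

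Antisense transcripts were the most abundant members, and all 22 were listed in every muscle, against 56.4% of the 2516 antisense transcripts of the series. Their median levels were 121 FPKM in longissimus, 157 in scapula, 152 in gluteus and 120.2 in intercostal, against 55.2, 50.3, 61.3 and 60.3 FPKM over all antisense transcripts listed in the same muscles. Over the 1420 antisense transcripts listed in every muscle, as all members were, the medians were higher, at 74.3, 73.7, 82.8 and 84.6 FPKM. Members also had more reads each, with medians of 333, 392, 273.5 and 312.5. Over all antisense transcripts listed in the same muscles these were 94, 57, 59 and 65. The part of read number in how often a transcript is listed was not tested.

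**Figure D1:**
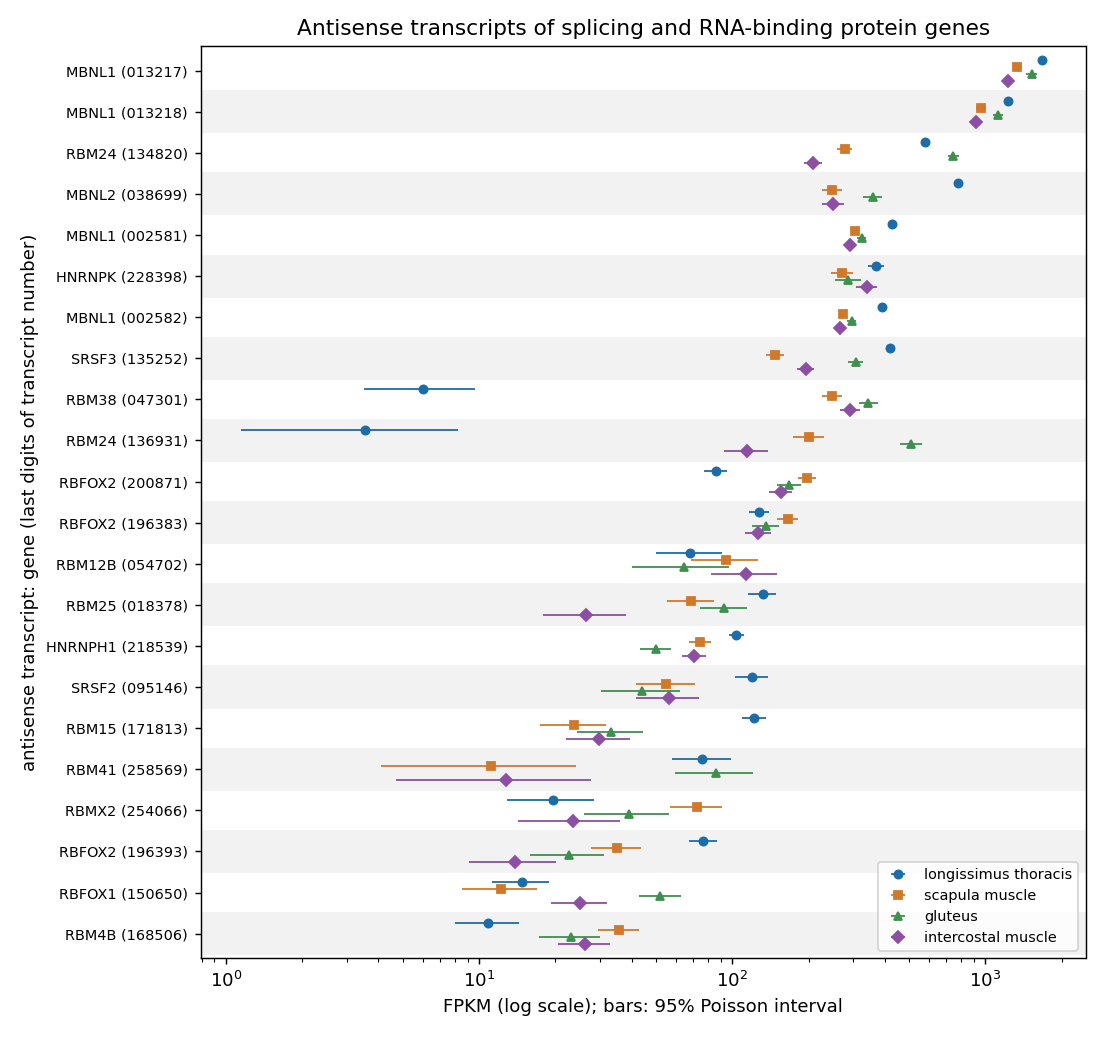
Levels in FPKM (log axis) of the 22 antisense transcripts, ordered by mean, with 1 point per muscle and bars for the 95% Poisson interval. The MBNL1 transcripts stand close together over the muscles, while those of RBM38 and 1 of 2 at RBM24 lie far lower in longissimus, at 5.99 and 3.53 FPKM.

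Opposite MBNL1, the main muscleblind protein of adult muscle, stood the 2 most abundant members. The first had 1668 (1615 to 1723) FPKM in longissimus, 1331 (1274 to 1389.9) in scapula, 1521 (1450.4 to 1595) in gluteus and 1227 (1168 to 1287) in intercostal (TCONS_00013217). The second, from the same locus, had 1228 (1189 to 1268) FPKM in longissimus, 960.0 (919 to 1002) in scapula, 1121 (1069.8 to 1174) in gluteus and 915 (873 to 959) in intercostal (TCONS_00013218). Both were highest in longissimus and lowest in intercostal, by 1.36-fold and 1.34-fold, and the scapula and intercostal intervals overlapped. Another pair at this locus was longer, 6185 and 6965 nucleotides against 1025 and 1440, and lay between 267 and 429 FPKM with the same order of muscles. Transcripts of 1 locus overlap and may count the same reads, so these 4 are not separate evidence.

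MBNL2, a muscleblind paralogue, had 1 antisense transcript, at 783 (749 to 817) FPKM in longissimus, 248 (226 to 271) in scapula, 358 (327 to 391) in gluteus and 250.1 (226 to 276) in intercostal. Longissimus was highest, with a log2 ratio of 1.64 to the median of the other 3, and the intervals of the scapula and intercostal libraries overlapped. At RBFOX2, which binds UGCAUG in introns, 2 antisense transcripts of 1 locus were highest in scapula. TCONS_00200871 had 86.0 (77.1 to 95.6) FPKM in longissimus, 198 (181 to 215) in scapula, 168 (151 to 187) in gluteus and 155 (140.1 to 172) in intercostal. Longissimus was lowest and its interval lay below the others. TCONS_00196383 had 128 (116 to 139.8) FPKM in longissimus, 166 (150.3 to 182) in scapula, 135 (119 to 153) in gluteus and 126 (112 to 142) in intercostal. It was one of the 5 members that varied least among those listed in every muscle. Another RBFOX2 antisense transcript, TCONS_00196393 at a separate locus, was highest in longissimus, with 76.8 (67.4 to 87.1) FPKM in longissimus, 34.9 (27.6 to 43.6) in scapula, 22.6 (15.9 to 31.2) in gluteus and 13.9 (9.13 to 20.2) in intercostal. The transcript opposite RBFOX1, the paralogue of nerve and striated muscle, was highest in gluteus, with 14.7 (11.3 to 18.9) FPKM in longissimus, 12.2 (8.58 to 17.0) in scapula, 52.0 (42.8 to 62.6) in gluteus and 25.0 (19.2 to 31.9) in intercostal.

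RBM24, a splicing factor of heart and skeletal muscle, had 2 antisense transcripts at separate loci, and longissimus stood differently in each. The first, TCONS_00134820 of 2113 nucleotides, had 576 (554 to 599) FPKM in longissimus, 278 (260.3 to 297) in scapula, 747 (712 to 783) in gluteus and 209 (193 to 227) in intercostal. Gluteus was highest and intercostal lowest, 3.57-fold apart, and no 2 intervals overlapped. The second, TCONS_00136931 of 665 nucleotides, had 3.53 (1.15 to 8.23) FPKM in longissimus, 201 (174 to 231) in scapula, 508 (458 to 562) in gluteus and 114 (92.8 to 139) in intercostal, from 5 reads in longissimus against 202, 374 and 100 in the others. Gluteus was again highest and intercostal lowest of the other 3, but longissimus lay far below them, with a log2 ratio of -5.48. RBM38, an RNA-binding protein related to RBM24 that also takes part in muscle differentiation, had 5.99 (3.49 to 9.60) FPKM in longissimus, 248 (227 to 271) in scapula, 345 (316 to 376) in gluteus and 292 (267 to 318) in intercostal, from 17, 499, 508 and 512 reads. The other 3 muscles were within 1.39-fold of each other there, and the log2 ratio of longissimus was -5.39.

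These 2 were the members with the widest range among those listed in every muscle. Such a fall was not confined to them. Of the 658 antisense transcripts with at least 100 reads in each of scapula, gluteus and intercostal, 24 (3.65%) were at least 16-fold lower in longissimus than the median of the others. Members made up 13 of the 658, and these 2 were the members among the 24. The cause was not tested. RBM4B, a paralogue of the splicing factor RBM4, was also lowest in longissimus. It had 10.8 (8.02 to 14.3) FPKM in longissimus, 35.6 (29.3 to 42.7) in scapula, 23.0 (17.3 to 30.0) in gluteus and 26.1 (20.5 to 32.8) in intercostal.

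Other RBM antisense transcripts had their highest value in different muscles. RBM15 belongs to the writer complex of N6-methyladenosine. Its antisense transcript had 122 (109 to 136) FPKM in longissimus, 23.8 (17.4 to 31.8) in scapula, 33.2 (24.3 to 44.3) in gluteus and 29.7 (22.0 to 39.3) in intercostal. Longissimus was far above the other 3, which overlapped. RBM41, a protein of the minor spliceosome, had 76.2 (57.9 to 98.5) FPKM in longissimus, 11.1 (4.08 to 24.2) in scapula, 86.0 (59.6 to 120.2) in gluteus and 12.7 (4.68 to 27.7) in intercostal. Longissimus and gluteus were high and overlapped, while the scapula and intercostal values rested on 6 reads each. RBM25, a splicing regulator, had 132 (116 to 149) FPKM in longissimus, 68.6 (55.1 to 84.4) in scapula, 92.6 (74.3 to 114) in gluteus and 26.5 (17.9 to 37.9) in intercostal. Intercostal was lowest there, and longissimus highest. At RBMX2, a spliceosome protein, scapula was highest, with 19.5 (12.9 to 28.4) FPKM in longissimus, 72.4 (56.5 to 91.3) in scapula, 39.0 (25.9 to 56.3) in gluteus and 23.4 (14.3 to 36.1) in intercostal. The other 3 overlapped. RBM12B ranged from 64.3 to 113 FPKM with overlapping intervals in every pair of muscles.

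Opposite SRSF3, a serine/arginine-rich protein that also controls splicing of SR protein genes, the values were 419.9 (403 to 437) FPKM in longissimus, 148 (136 to 160.4) in scapula, 307 (287 to 328) in gluteus and 195 (180.4 to 210.1) in intercostal. No 2 intervals overlapped, and the order ran from longissimus through gluteus and intercostal to scapula. SRSF2, another SR protein, had 119.5 (102 to 139) FPKM in longissimus, 54.9 (41.4 to 71.3) in scapula, 44.1 (30.4 to 62.0) in gluteus and 56.2 (41.7 to 74.1) in intercostal. Longissimus was above the others, which overlapped. HNRNPK, a poly(C)-binding protein, varied little, with 369.7 (343 to 398) FPKM in longissimus, 272 (245 to 301) in scapula, 288 (255 to 323) in gluteus and 339 (307 to 374) in intercostal. HNRNPH1, which binds runs of G, had 104 (96.7 to 111) FPKM in longissimus, 74.8 (67.7 to 82.4) in scapula, 49.9 (43.3 to 57.3) in gluteus and 70.5 (63.2 to 78.4) in intercostal. Longissimus was highest and gluteus lowest. Of the 22 antisense members, 12 were highest in longissimus and 1 in intercostal, against 29.6% and 23.7% of the 1420 antisense transcripts listed in every muscle. The 22 came from 18 loci, and 4 of the 12 were the MBNL1 transcripts of 1 locus, which may count the same reads. This count by transcript thus does not rest on 12 separate loci. The median range over the muscles was 1.56 on the log2(FPKM + 1) scale, against 1.53 over those 1420.

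By the rule of size, which takes a log2 ratio of (FPKM + 1) of at least 1 against the median of the other 3 muscles, 7 of 22 antisense members were higher in longissimus, where 21.8% of all antisense transcripts were, and 3 were lower, against 30.8%. The 7 lay opposite RBM24, MBNL2, SRSF3, SRSF2, RBM15, RBM41 and RBFOX2, and the 3 opposite RBM24, RBM38 and RBM4B. In scapula 1 was higher (RBMX2) and 3 lower (RBM24, SRSF3 and RBM41), against 27.5% and 14%. Gluteus had 4 higher, both RBM24 transcripts, RBM41 and RBFOX1, and 0 lower, against 20.6% and 18.6%. In intercostal 0 were higher and 4 lower (RBM24, RBM25, RBM41 and RBFOX2), against 20.1% and 16.9%. All 22 members were listed in every muscle, against 56.4% of all antisense transcripts. A transcript not listed entered as 0, which itself can give a call. The shares are thus not matched in listing, and the part of listing in these contrasts was not tested. 

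Intronic members were sparser. Of 367, 180 (49.0%) were listed in 1 muscle, 90 in 2, 59 in 3 and 38 (10.4%) in all 4, against 55.0% in 1 and 6.87% in all 4 of the 26452 intronic transcripts of the series. Longissimus listed 161 of them, scapula 235, gluteus 138 and intercostal 155, or 43.9%, 64.0%, 37.6% and 42.2%. The same shares over all intronic transcripts were 46.5%, 58.0%, 28.1% and 38.6%. The median levels where listed were highest in longissimus, at 36 FPKM, and lowest in gluteus, at 23.9 FPKM. Over all intronic transcripts they were 30.8 and 23.7 FPKM there. Listed for 1 muscle alone were 48 in longissimus, 81 in scapula, 26 in gluteus and 25 in intercostal, of which 20, 21, 4 and 7 had 20 or more reads. Of all 26452 intronic transcripts, 5116 were listed for longissimus alone, 5544 for scapula, 1431 for gluteus and 2453 for intercostal. Scapula had the largest such count there too. Of the 38 listed in every muscle, 10 belonged to RBFOX2, 4 each to MBNL1, CPSF6 and RBM24 and 3 to HNRNPA2B1, and 22 were lowest in gluteus (57.9%, against 33.0% of all intronic transcripts listed in every muscle). Some of the 38 share a locus, at CPSF6 and RBFOX2 among others, and may count the same reads. The 22 are thus not all separate evidence.

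**Figure D2:**
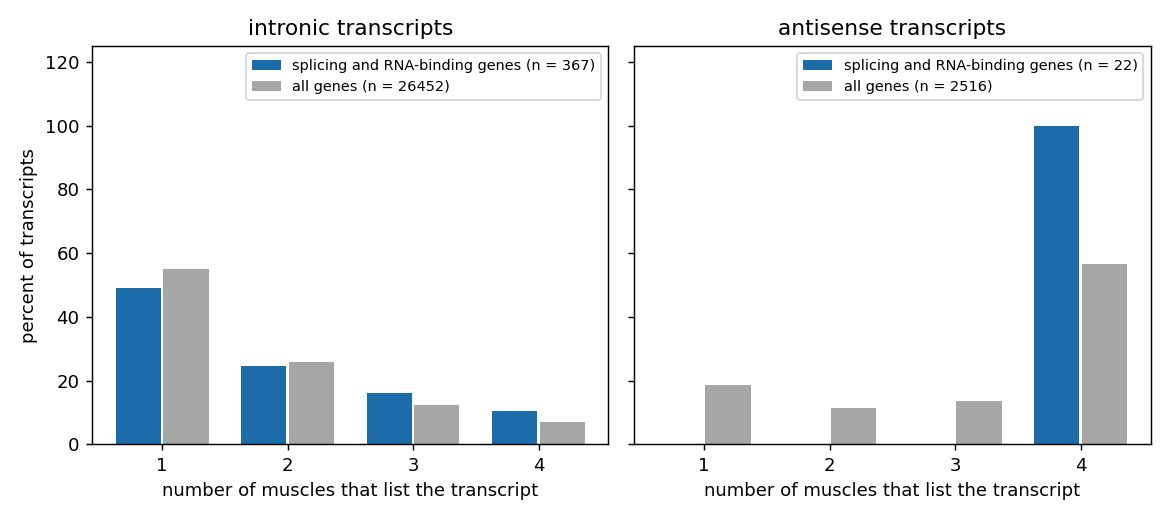
Percent of transcripts (bars) listed in 1, 2, 3 or 4 muscles, for intronic (left) and antisense (right) transcripts of splicing and RNA-binding protein genes (blue) and of all genes (grey). All 22 antisense members are listed in 4 muscles, while 49.0% of the 367 intronic members are listed in 1.

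For genes with many intronic transcripts, reads were summed over loci with 1 transcript per locus, the one with most reads, and are given in RPM. Over all 26452 intronic transcripts the same sum was 176139 RPM in longissimus, 191341 in scapula, 121301 in gluteus and 157404 in intercostal. All 2516 antisense transcripts, every transcript of a locus included, summed to 535936 RPM in longissimus, 507226 in scapula, 634992 in gluteus and 563893 in intercostal. Over the series, gluteus was thus lowest for intronic and highest for antisense transcripts. Among the 634 genes with 10 or more intronic transcripts, the median ratio of the highest to the lowest muscle was 4.00. Longissimus was highest for 45.3% of them and scapula for 39.7%, while gluteus was lowest for 52.8% and intercostal for 29.8%.

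**Figure D3:**
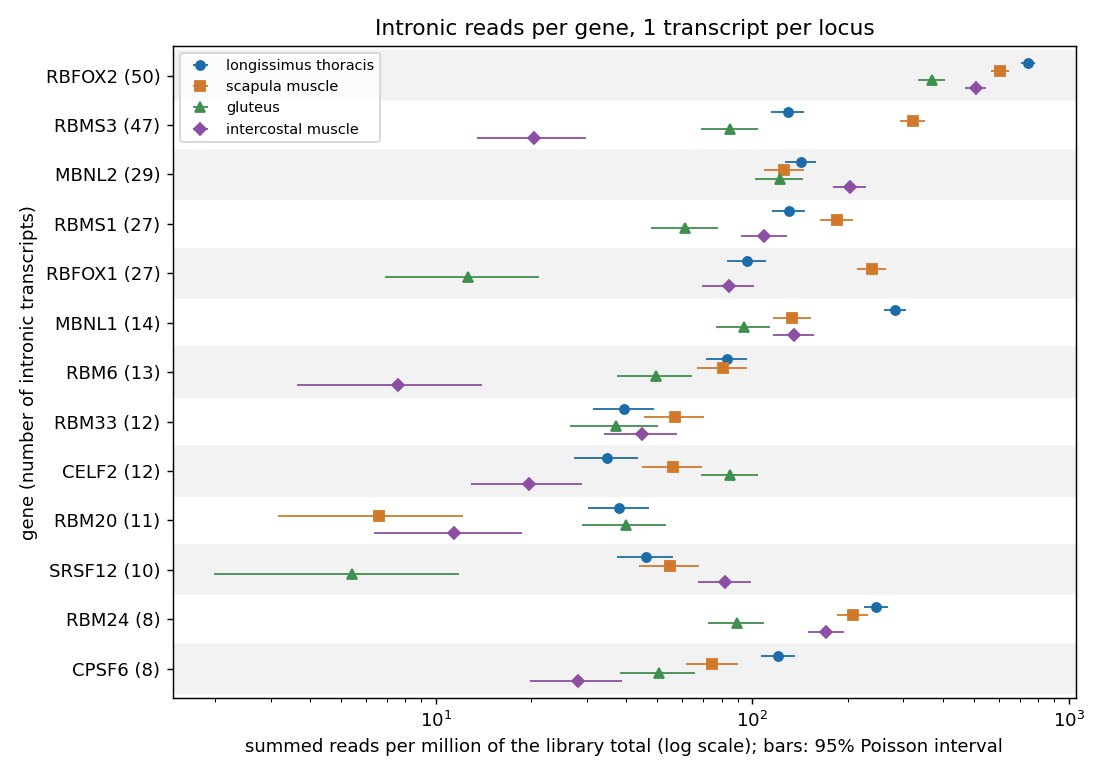
Summed intronic reads-per-million of the library total (log axis) for the 13 genes with 8 or more intronic transcripts (number in parentheses), 1 point per muscle with 95% Poisson bars. RBMS3 and RBM6 lie lowest in intercostal (20.5 and 7.58 RPM), RBFOX1 and SRSF12 in gluteus (12.6 and 5.42 RPM), and RBFOX2 runs from 369 to 743 RPM.

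RBFOX2 had 50 intronic transcripts at 45 loci, and its sum was 743 (707 to 780.4) RPM in longissimus, 607 (569 to 648) in scapula, 369 (334 to 407) in gluteus and 508 (470.3 to 548) in intercostal. No 2 intervals overlapped, yet the ratio of 2.01 between the highest and lowest muscle ranked 563 among the 634 genes. Listed were 26, 35, 24 and 26 of the 50 in longissimus, scapula, gluteus and intercostal in this order. Single transcripts differed more than the sum. TCONS_00196409 was listed in every muscle, at 82.2 FPKM in longissimus, 78.1 in scapula, 108 in gluteus and 88.1 in intercostal. TCONS_00196391 had 86 reads and 183 (146 to 225) FPKM in longissimus, but was not listed for scapula, gluteus and intercostal. It thus came from 1 library. TCONS_00205682, by contrast, had 51.1 (30.8 to 79.8) FPKM in scapula, 95.4 (62.3 to 139.8) in gluteus and 6.17 (0.747 to 22.3) in intercostal, but was not listed for longissimus. TCONS_00196404 had 77.8 (54.5 to 108) FPKM in longissimus and 62.4 (34.9 to 103) in gluteus, but was not listed for scapula and intercostal. Thus transcripts within introns of 1 gene were listed for different sets of muscles.

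RBFOX1 was listed mostly for scapula. Listed were 8, 20, 4 and 7 of its 27 intronic transcripts in the same order, 13 of them for scapula alone. The sum was 96.1 (83.4 to 110.2) RPM in longissimus, 238 (214 to 264) in scapula, 12.6 (6.91 to 21.2) in gluteus and 84.2 (69.2 to 101) in intercostal, so scapula was highest and gluteus lowest, 18.8-fold apart, which ranked 75 among the 634 genes. A transcript of 1751 nucleotides had 30.3 (24.9 to 36.4) FPKM in longissimus, 43.1 (35.5 to 51.7) in scapula, 1.03 (0.125 to 3.73) in gluteus and 21.2 (15.7 to 28.1) in intercostal (TCONS_00148199). The antisense transcript of the same gene, described above, was highest in gluteus, the muscle with the lowest intronic sum. Gluteus stood likewise in the sums of each class over the series.

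**Figure D4:**
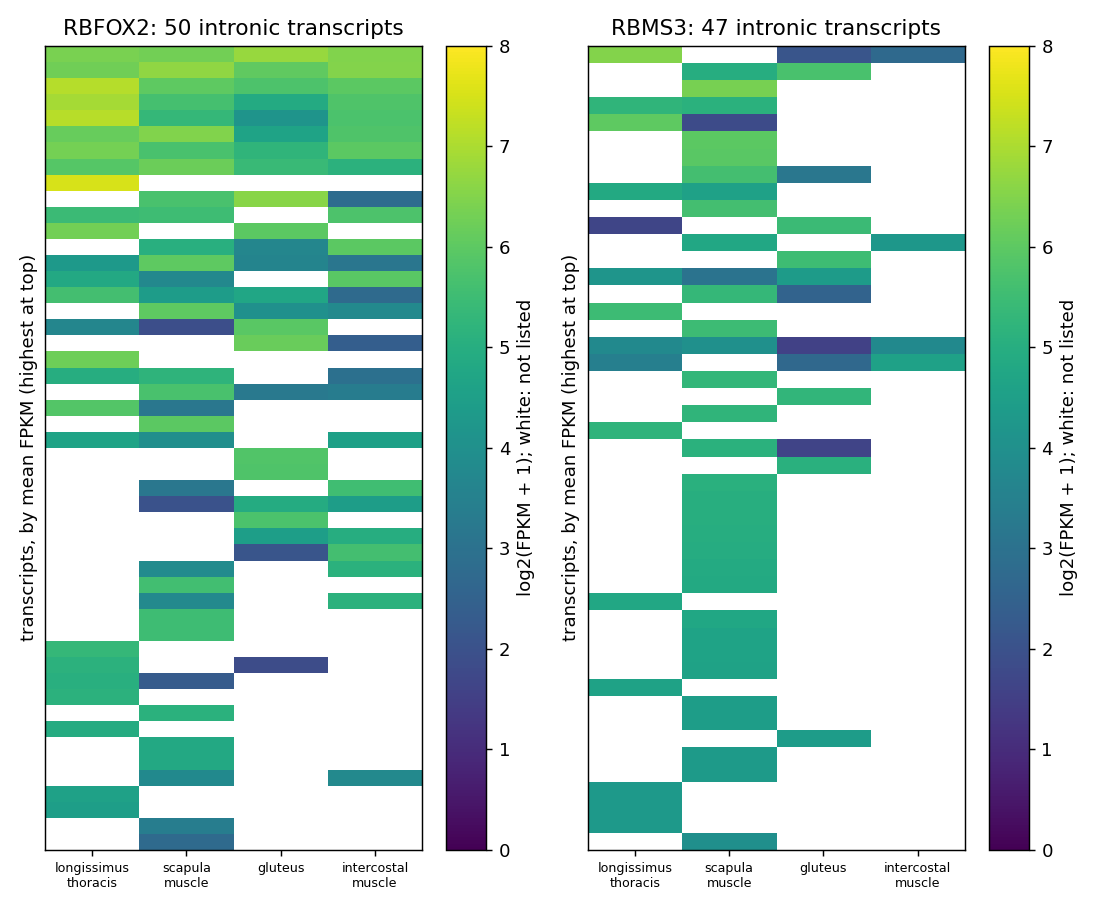
Levels as log2(FPKM + 1) (colour) of the intronic transcripts of RBFOX2 (50, left) and RBMS3 (47, right), 1 row per transcript by mean level and 1 column per muscle, white where not listed. RBFOX2 has 10 transcripts listed in every muscle, and RBMS3 has 23 listed for scapula alone and 4 listed for intercostal.

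RBMS3, which binds single-stranded nucleic acids, had 47 intronic transcripts, of which 15, 33, 13 and 4 were listed in the same order. The sum was 129 (115 to 146) RPM in longissimus, 321 (293 to 351) in scapula, 84.9 (68.6 to 104) in gluteus and 20.5 (13.5 to 29.8) in intercostal, from 276, 485, 94 and 27 reads. Scapula was highest and intercostal lowest, 15.7-fold apart, which ranked 85 among the 634 genes, and no 2 intervals overlapped. Of the 47, 34 were listed in 1 muscle, and 23 of these for scapula, among them TCONS_00130172 at 80.6 FPKM in scapula. Fibroblast marker transcripts summed highest in scapula too (8516 RPM, against 1488 to 3912 elsewhere), and second in intercostal, where RBMS3 was lowest; their part in the RBMS3 values was not tested. Its paralogue RBMS1 had 130.4 (116 to 147) RPM in longissimus, 185 (164 to 208) in scapula, 61.4 (47.7 to 77.8) in gluteus and 109 (92.1 to 129) in intercostal over 27 transcripts, with scapula highest and gluteus lowest. The RBMS1 transcript TCONS_00108046 had 57.9 (39.1 to 82.7) FPKM in longissimus and 84.4 (57.3 to 119.8) in scapula, but was not listed for gluteus and intercostal. TCONS_00108056 was listed for the same pair of muscles, at 48.9 FPKM in longissimus and 92.0 in scapula. TCONS_00110646, by contrast, was listed for intercostal alone, at 75.1 FPKM.

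Intronic transcripts of MBNL1 summed to 283 (261 to 306) RPM in longissimus, 134 (116 to 153) in scapula, 93.9 (76.7 to 114) in gluteus and 136 (117 to 157) in intercostal. Longissimus was highest, as for the antisense transcripts, and gluteus lowest. TCONS_00002565 had 189.9 (154 to 231) FPKM in longissimus, 27.3 (13.1 to 50.3) in scapula, 3.73 (0.0945 to 20.8) in gluteus and 31.3 (15.03 to 57.6) in intercostal, the gluteus value being 1 read. TCONS_00002580 had 221 (191 to 256) FPKM in longissimus, 140.3 (112 to 174) in scapula, 45.6 (27.9 to 70.4) in gluteus and 86.2 (62.9 to 115) in intercostal. Both were highest in longissimus and lowest in gluteus. TCONS_00013225 was highest in gluteus, at 149 FPKM in longissimus, 77.0 in scapula, 174 in gluteus and 88.3 in intercostal, with overlapping intervals for longissimus and gluteus. Listed for longissimus alone was TCONS_00002564, at 81.7 FPKM, and for gluteus alone TCONS_00013221, at 99.0 FPKM. Intercostal muscle had the highest values of TCONS_00010931, with 40.8 FPKM in scapula and 119 in intercostal, and of TCONS_00010928, with 5.65 FPKM in scapula and 100.5 in intercostal, and longissimus and gluteus had neither. TCONS_00002569 was not listed for gluteus and had 98.3 FPKM in longissimus, 55.9 in scapula and 50.2 in intercostal.

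For MBNL2 the intronic sum was 142 (127 to 159) RPM in longissimus, 126 (109 to 146) in scapula, 122 (102 to 144) in gluteus and 203 (179.6 to 229) in intercostal, highest in intercostal and overlapping among the other 3, whereas its antisense transcript was highest in longissimus. TCONS_00038693 had 74.8 (56.3 to 97.3) FPKM in longissimus, 1.92 (0.0485 to 10.7) in scapula, 55.0 (34.0 to 84.0) in gluteus and 17.6 (7.59 to 34.6) in intercostal. Longissimus and gluteus were high there and overlapped. Another MBNL2 transcript, TCONS_00042574, was not listed for scapula and had 36.5 FPKM in longissimus, 40.6 in gluteus and 9.08 in intercostal. TCONS_00041724 was listed for 2 muscles, with 53.5 FPKM in longissimus and 72.9 in intercostal. TCONS_00042570 had 1.67 FPKM in scapula and 79.6 in gluteus, but was not listed for longissimus and intercostal. TCONS_00041710 was listed for intercostal alone, at 76.9 FPKM. CELF2, a protein that acts against MBNL proteins on many exons, had 34.7 (27.3 to 43.6) RPM in longissimus, 56.2 (44.9 to 69.5) in scapula, 84.9 (68.6 to 104) in gluteus and 19.7 (12.9 to 28.9) in intercostal over 12 transcripts. Gluteus listed 9 of the 12, 6 of them alone, and was highest. Yet the CELF2 transcript of highest mean level, TCONS_00046421, was not listed for gluteus and had 64.0 (47.2 to 84.8) FPKM in longissimus, 48.9 (31.9 to 71.6) in scapula and 10.8 (3.50 to 25.1) in intercostal. TCONS_00051093 was found in gluteus alone, at 114 FPKM from 28 reads.

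RBM20, the splicing repressor of titin exons, summed to 37.99 (30.2 to 47.2) RPM in longissimus, 6.61 (3.17 to 12.2) in scapula, 39.7 (28.9 to 53.3) in gluteus and 11.4 (6.37 to 18.8) in intercostal over 11 transcripts. Longissimus and gluteus were high and overlapped, and the scapula and intercostal values rested on 10 and 15 reads. The RBM20 transcript TCONS_00152605 had 84.1 (61.8 to 112) FPKM in longissimus and 3.45 (0.0873 to 19.2) in gluteus, but was not listed for scapula and intercostal. The gluteus value was 1 read. Within RBM24 introns the sum was 246 (226 to 268) RPM in longissimus, 208 (185 to 232) in scapula, 89.4 (72.7 to 109) in gluteus and 171 (149.8 to 195) in intercostal, with gluteus lowest, whereas gluteus was highest for both RBM24 antisense transcripts. Over the series, too, gluteus was lowest in the intronic and highest in the antisense sum. RBM6, a splicing factor and neighbour of RBM5, had 83.0 (71.2 to 96.2) RPM in longissimus, 80.7 (67.0 to 96.3) in scapula, 49.7 (37.4 to 64.6) in gluteus and 7.58 (3.64 to 13.9) in intercostal. Intercostal was lowest at 10 reads, and TCONS_00127289 was listed for longissimus alone, at 115 FPKM. RBM5, a regulator of apoptosis genes' splicing, held the member that varied least, TCONS_00127279, at 67.3 (57.5 to 78.3) FPKM in longissimus, 64.4 (53.1 to 77.4) in scapula, 57.8 (45.5 to 72.5) in gluteus and 73.2 (60.3 to 88.0) in intercostal, whose intervals all overlapped. Another transcript of the same locus, TCONS_00129859, varied more. It had 28.3 (22.9 to 34.6) FPKM in longissimus, 77.2 (66.5 to 89.2) in scapula, 41.3 (32.3 to 51.9) in gluteus and 48.1 (39.2 to 58.5) in intercostal. The RBM5 transcript TCONS_00127280, at a separate locus, was not listed for gluteus and had 72.0 FPKM in longissimus, 89.8 in scapula and 43.3 in intercostal.

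RBM33 had sums within 1.54-fold, 39.4 (31.4 to 48.8) RPM in longissimus, 56.9 (45.5 to 70.2) in scapula, 37.0 (26.6 to 50.2) in gluteus and 44.7 (34.1 to 57.7) in intercostal, yet its single transcripts were listed for different muscles. Its transcript TCONS_00193162 had 28.3 FPKM in longissimus, 2.72 in gluteus and 79.9 in intercostal, but was not listed for scapula. For TCONS_00190920 the values were 42.9 FPKM in scapula and 41.8 in gluteus, but was not listed for longissimus and intercostal. TCONS_00190919 was listed for scapula alone at 88.0 FPKM. A further RBM33 transcript, TCONS_00194684, had 37.9 FPKM in longissimus and 42.3 in gluteus and was listed for neither scapula nor intercostal. No muscle listed all of its transcripts. At RBM14, a paraspeckle protein, TCONS_00169160 was listed for scapula alone, at 120.0 FPKM. Its transcript TCONS_00170116 reached 41.2 FPKM in scapula and 41.8 in intercostal, and the other 2 libraries lacked it. At the neighbouring RBM4, TCONS_00169166 had 71.7 FPKM in scapula and 45.1 in intercostal, but was not listed for longissimus and gluteus. RBM45 had 38.9 FPKM in longissimus and 44.9 in scapula, but was not listed for gluteus and intercostal (TCONS_00106081).

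Among HNRNP genes the highest intronic member of all lay in HNRNPA2B1, whose protein packages precursor RNA and sorts messenger and micro RNAs. It had 621 (588 to 655) FPKM in longissimus, 279 (253 to 306) in scapula, 387 (351 to 425) in gluteus and 259 (233 to 288) in intercostal (TCONS_00186895), with longissimus above the others by a log2 ratio of 1.15. A second HNRNPA2B1 transcript, TCONS_00192768, had 103 (83.4 to 126) FPKM in longissimus, 52.7 (36.5 to 73.6) in scapula, 42.3 (25.8 to 65.3) in gluteus and 139 (109.5 to 173) in intercostal. Intercostal and longissimus were high and overlapped there. HNRNPLL, a regulator of exon skipping in lymphocytes, had 6 intronic transcripts with 4, 0, 4 and 2 listed, so none in scapula, and TCONS_00035258 was found in gluteus alone at 77.3 FPKM. HNRNPUL1, a DNA damage response protein, had 79.3 FPKM in gluteus and 6.35 in intercostal, but was not listed for longissimus and scapula (TCONS_00091503). SRSF12, an SR protein that represses splicing, had 46.0 (37.3 to 56.0) RPM in longissimus, 54.9 (43.7 to 68.1) in scapula, 5.42 (1.99 to 11.8) in gluteus and 81.9 (67.2 to 98.9) in intercostal, with gluteus lowest at 6 reads. SRSF12 TCONS_00244584 was listed for intercostal alone, at 97.1 FPKM.

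The spliceosome genes SF3B3 and PRPF38A had few members. SF3B3, a subunit of the SF3B complex, had 3 intronic transcripts, all listed for scapula alone with 59 reads together, the highest at 60.3 (41.8 to 84.2) FPKM (TCONS_00086754). PRPF38A, which joins the complex before catalysis, had 6 and summed to 97.1 (84.3 to 111) RPM in longissimus, 21.8 (15.02 to 30.7) in scapula, 7.22 (3.12 to 14.2) in gluteus and 6.07 (2.62 to 12.0) in intercostal, with longissimus highest. Its transcript TCONS_00172852 had 124 (96.9 to 157) FPKM in longissimus, 5.01 (0.607 to 18.1) in scapula and 23.0 (9.92 to 45.3) in intercostal, but was not listed for gluteus. PRPF38A TCONS_00172854 was listed for longissimus alone, at 84.2 FPKM. Outside the spliceosome, LSM14A had 15.3 FPKM in scapula and 65.1 in intercostal, but was not listed for longissimus and gluteus (TCONS_00090142). Of 18 PRPF transcripts 2 were listed for gluteus, and of the 7 with the LSM prefix, 6 of LSM14A and 1 of LSMEM1, gluteus listed 1.

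CPSF6, a subunit of the cleavage factor that selects poly(A) sites, had 8 intronic transcripts and 121 (106 to 136) RPM in longissimus, 74.7 (61.6 to 89.9) in scapula, 50.6 (38.2 to 65.7) in gluteus and 28.1 (19.8 to 38.7) in intercostal. Longissimus was highest and intercostal lowest. TCONS_00200495 split the muscles into pairs, with 90.5 (73.8 to 109.7) FPKM in longissimus, 91.7 (72.0 to 115) in scapula, 22.0 (11.7 to 37.6) in gluteus and 21.3 (11.9 to 35.1) in intercostal, longissimus and scapula being high. Another CPSF6 transcript split them differently: TCONS_00195761 had 81.3 (57.8 to 111) FPKM in longissimus and 108 (71.4 to 158) in gluteus, but was not listed for scapula and intercostal. CPSF4, the zinc finger subunit, had 5 intronic transcripts with 1, 3, 3 and 3 listed, and sums of 1.41 RPM in longissimus, 2.65 in scapula, 19.0 in gluteus and 29.6 in intercostal.

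Over all 389 members, the rule of size was read beside its share over the 63839 transcripts with at least 1 FPKM somewhere. In longissimus 130 members (33.4%) were higher and 81 (20.8%) lower, against 37.2% and 21.3% of all transcripts. In scapula 182 (46.8%) were higher and 49 (12.6%) lower, against 43.2% and 11.3%. In gluteus 82 (21.1%) were higher and 103 (26.5%) lower, against 18.6% and 23.7%. In intercostal 95 (24.4%) were higher and 78 (20.1%) lower, against 26.4% and 17.9%. By this rule each share lies within 4 percentage points of that over all transcripts, so the counts are not a result about these genes. When a call had to hold against each other muscle, 80 members (20.6%) were higher in longissimus, against 27.9% of all transcripts, and 31 (7.97%) lower in gluteus, against 5.10%. The median log2 ratio was 0.68 in scapula and 0 in the other 3, against 0 in each over all transcripts. Within the intronic class the scapula median was 0.89 for members and 0.24 over all intronic transcripts. Scapula listed 64.0% of intronic members and 58.0% of all intronic transcripts, and the part of listing in this median was not tested.

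**Figure D5:**
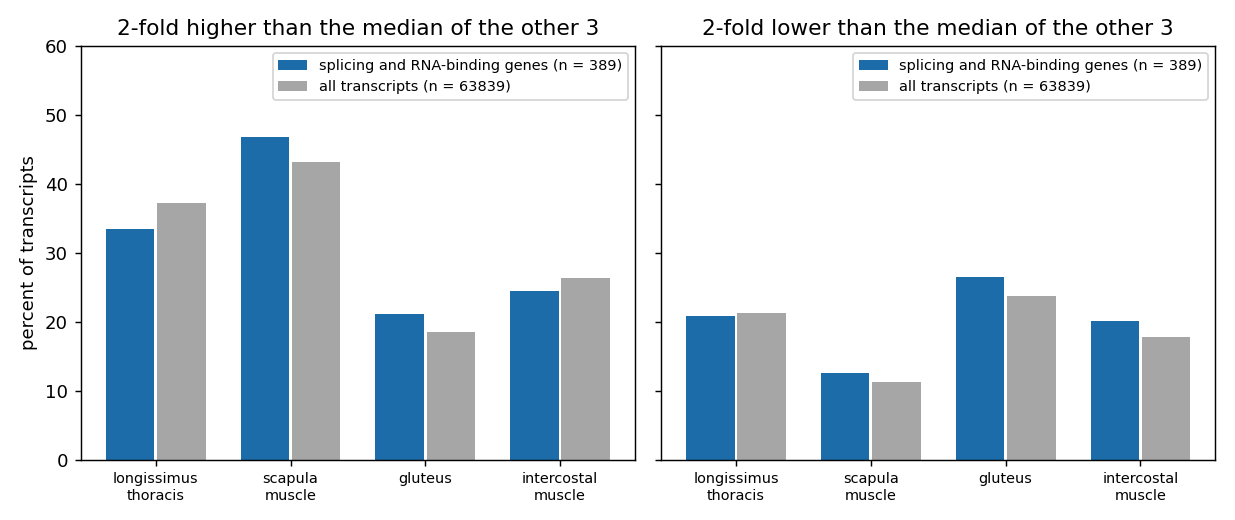
Percent of transcripts at least 2-fold higher (left) or lower (right) in a muscle than the median of the other 3, for the 389 transcripts of splicing and RNA-binding protein genes (blue) and for all 63839 tested (grey). The bars of each pair lie close together, with scapula highest on the left (46.8% and 43.2%).

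By class, 123 of 367 intronic members were higher and 78 lower in longissimus, against 38.4% and 20.3% of all intronic transcripts. The members' shares were 33.5% and 21.3%. For scapula they were 181 (49.3%) and 46 (12.5%), against 46.7% and 11.5%. For gluteus they were 78 (21.3%) and 103 (28.1%), against 17.9% and 26.2%, and for intercostal 95 (25.9%) and 74 (20.2%), against 27.5% and 19.5%. The counts differed among genes. In scapula 31 of 47 RBMS3 and 19 of 27 RBFOX1 intronic transcripts were higher, and 2 of 11 for RBM20. In gluteus 7 of 12 CELF2 transcripts were higher, and 1 of 27 for RBFOX1 and 3 of 27 for RBMS1. Of the scapula calls, 23 for RBMS3 and 13 for RBFOX1 were transcripts listed for scapula alone, and 6 CELF2 calls were listed for gluteus alone. Such transcripts are higher by construction, so these counts largely repeat the listing, and transcripts of 1 gene are not replicates.

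Across the 60 members listed in every muscle, levels on the log2(FPKM + 1) scale were most alike between the scapula and intercostal libraries (Pearson's r 0.79, Spearman's rho 0.76) and least alike between longissimus and gluteus (0.56 and 0.51) or scapula (0.56 and 0.51). Over the 7188 transcripts of the series listed in every muscle the values were 0.63 and 0.58 for scapula and intercostal, 0.48 and 0.41 for longissimus and gluteus, and 0.43 and 0.37 for longissimus and scapula. These are across transcripts, which are not replicates, and the points share a library and its depth.

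Other genes of the same processes were counted through lists of genes outside the prefixes. Of 65 further spliceosome genes 29 had 94 transcripts, of which 32 (34.0%) were higher and 29 (30.9%) lower in longissimus, against 37.2% and 21.3% of all transcripts. In scapula 45 (47.9%) and 11 (11.7%) were, in gluteus 16 (17.0%) and 27 (28.7%), and in intercostal 28 (29.8%) and 20 (21.3%), beside the shares over all transcripts of 43.2% and 11.3%, 18.6% and 23.7%, and 26.4% and 17.9%. Of 74 further splicing regulators 51 had 247 transcripts, with 97 (39.3%) higher and 52 (21.1%) lower in longissimus, and 111 (44.9%) and 35 (14.2%) in scapula. In gluteus 53 (21.5%) were higher and 73 (29.6%) lower, and in intercostal 53 (21.5%) and 61 (24.7%), so the lower shares in both lie above the 23.7% and 17.9% of all transcripts. Opposite FXR1, a paralogue of the fragile X protein that is abundant in muscle, the most abundant transcript of this list had 797 (778 to 816) FPKM in longissimus, 373 (358 to 389) in scapula, 676 (652 to 701) in gluteus and 404 (387 to 421) in intercostal. QKI, a regulator of muscle and glial splicing, had 454 (442 to 466) FPKM in longissimus, 391 (378 to 404) in scapula, 549 (530.5 to 567) in gluteus and 495 (479 to 511) in intercostal (TCONS_00240949). Of 19 further 3′ end processing genes 11 had 102 transcripts, with 48 higher and 22 lower in longissimus (47.1% and 21.6%, against 37.2% and 21.3% of all transcripts), 42 (41.2%) and 13 (12.7%) in scapula, 19 (18.6%) and 29 (28.4%) in gluteus, and 22 (21.6%) and 19 (18.6%) in intercostal. Nothing particular to any of these 3 lists is read from the shares. The median log2 ratio of this list was 0.63 in longissimus and 0 in the other muscles. For the spliceosome list it was 0.81 and for the regulators 0.43 in scapula, and 0 elsewhere.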

How the data were processed

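Total RNA of 4 muscles was sequenced with 1 pooled library each. FPKM values were deposited by the authors per transcript, listing only values above 0. The submitters' processing notes name Cufflinks 2.1.1, TopHat2 2.0.9 and the build UMD3.1 without roles. Strand setting, annotation and the filter for noncoding candidates: not given in the sources used here. No coordinates are in the tables, and the RefSeq gene table of another build served for names and neighbours only.

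Whole reads were recovered with Python 3.11.15 as the smallest read number and length (at least 200 nucleotides, and the same in every library) that give each of the 115374 values, with a largest relative error of 5.1e-15. These read numbers are lower bounds. Recovery was tested on simulated data. Library totals were inferred from the same values. The recovered reads sum to 102% to 104% of these totals, so some reads count in more than 1 transcript. Unlisted transcripts entered as 0. A transcript was called at a log2 ratio of (FPKM + 1) of at least 1 against the median of the other 3 muscles, with at least 1 FPKM in 1 library. No p-values were computed.

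Named transcripts were the 15 of highest mean, the 6 highest and 6 lowest ratios per muscle with 10 or more reads in their highest library, the 6 genes with most transcripts, the 5 smallest and 5 largest ranges, and the highest of each prefix; others described were chosen after their values were seen. The members and lists were chosen with earlier results of these data known. Tried instead were pseudocounts of 0.1 and 10, other filters, scaling to equal medians, each of the other 3 muscles as reference, and a reference without longissimus thoracis.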

Additional observations from a re-analysis of the deposited data

How the results depend on the processing

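With 1 library per muscle no replicate could be left out. No paired analysis was possible because each muscle has 1 library and the counts come from no test. Of 56 counts under the alternatives, 41 stayed within 1.5 times the value reported. A pseudocount of 0.1, no filter, 10 recovered reads in at least 1 library and scaling to equal medians moved none of them that far. With a pseudocount of 10, members called lower fell to 46 in longissimus, 25 in scapula, 62 in gluteus and 47 in intercostal, or 11.8%, 6.43%, 15.9% and 12.1%, against 12.3%, 6.27%, 13.5% and 9.76% of all transcripts. When the call had to hold against every other muscle, a stricter rule by construction, 80 were higher and 21 lower in longissimus, 110 and 10 in scapula, 43 and 31 in gluteus, and 51 and 15 in intercostal. The higher shares were 20.6%, 28.3%, 11.1% and 13.1%, against 27.9%, 25.9%, 9.499% and 13.8% of all transcripts, and the lower ones 5.40%, 2.57%, 7.97% and 3.86%, against 6.07%, 1.74%, 5.10% and 3.26%. Without longissimus in the reference, whose median is then the mean of 2 values and is above 0 whenever either is listed, the lower calls came to 111 in scapula, 215 in gluteus and 193 in intercostal, or 28.5%, 55.3% and 49.6%, against 28.3%, 53.0% and 44.6% of all transcripts. Of the 60 members listed in every muscle, 48 had 5 or more reads in each. The median read number of intronic members where listed was 25 in longissimus, 14 in scapula, 10 in gluteus and 13 in intercostal, so their counting intervals are wide.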
